A study of Mus musculus with 6 samples.

Results

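Gt(ROSA)26Sor and Setd5 are neighbouring genes on mouse chromosome 6, and the junction where both start held the DMSO peak of highest fold. The 2 genes, of 49943 RefSeq genes on the chromosomes of the lists, were chosen by the rank of that peak, so its fold and rank are given as a description without a test. All summits of both lists inside either gene or within 100 kb of an end were taken, which gave 5 of 6444 DMSO summits and 1 of 491 treated summits. Ends of DNA had been mapped by BrITL, in which free ends are labelled with a biotinylated nucleotide, captured on streptavidin beads and sequenced. The cells were passage-immortalised mouse embryonic fibroblasts with the ATR+/- genotype that express Bcl-xL, a protein that blocks apoptosis. All 6 samples shared this genotype. Control cells had DMSO, the vehicle, for 18 h. Treated cells had both 1 µM ATR-45, which blocks the kinase ATR, and 0.2 µM aphidicolin, which slows replication by blocking polymerases, also for 18 h. The authors' peak list of a condition pools its 2 pull-downs and sets them against input, so no value below has a replicate error. There was 1 input sample per condition. Whether the cells came from a single line, and where the Bcl-xL construct lies, was not given in the sources used here, and peak lists of DNA hold no markers by which to check the cell type.

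Gt(ROSA)26Sor, known as Rosa26, is a non-coding gene that was found by gene trapping and is active in most mouse tissues. Its first intron is the usual site for inserting transgenes in mouse. Setd5 encodes a chromatin regulator with a SET domain, a fold found in many histone methyltransferases, and is needed for embryonic development in mouse. The genes are transcribed away from each other, so that their promoters meet, and active promoters of this kind are nucleosome-poor DNA. ATR protects stalled replication forks, and forks that stall without it can collapse into broken ends.

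In the RefSeq table of GRCm38.p6, the assembly of mm10, Gt(ROSA)26Sor (lncRNA) lay at 113067428 to 113077244 of chromosome 6 and spanned 9817 bp. Setd5 (protein-coding) lay at 113077262 to 113153432 and spanned 76171 bp. Only 17 bp separated the genes. At its other end Gt(ROSA)26Sor overlapped Thumpd3 by 851 bp. The window of 286 kb held 9 RefSeq genes, of which 4 were protein-coding (Thumpd3, Setd5, Lhfpl4 and Mtmr14), 2 lncRNA, 2 pseudogenes and 1 snRNA. Thumpd3 encodes a tRNA methyltransferase, Lhfpl4 a membrane protein of inhibitory synapses and Mtmr14 a phosphoinositide phosphatase.

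RefSeq promoter sequences (250 bases before to 50 after a start, GRCm38.p6) were at hand for the 4 coding genes of the window. They are shown because the DMSO peaks of the window touched some of these starts and not others. The capitals mark CG dinucleotides, which are dense in the promoters of broadly active genes. The first pair of windows lay under DMSO peaks and the second pair under no peak. The Setd5 sequence belongs to a start inside the gene, 27.7 kb from the DMSO summit at the junction of the members. No window was at hand for the junction itself, so the starts under the peak of the locus are not compared. A window of the lncRNA gene Gm43868, under the same DMSO peak as Thumpd3, was at hand and is not shown.
Thumpd3, plus strand, chr6:113046052-113046351, under a DMSO peak: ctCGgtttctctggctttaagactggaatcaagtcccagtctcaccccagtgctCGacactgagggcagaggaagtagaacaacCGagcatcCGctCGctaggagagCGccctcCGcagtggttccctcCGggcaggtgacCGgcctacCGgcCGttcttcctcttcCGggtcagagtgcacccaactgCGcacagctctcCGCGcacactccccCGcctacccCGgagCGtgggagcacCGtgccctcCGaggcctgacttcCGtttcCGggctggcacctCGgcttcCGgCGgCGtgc
Mtmr14, plus strand, chr6:113237593-113237892, under a DMSO peak: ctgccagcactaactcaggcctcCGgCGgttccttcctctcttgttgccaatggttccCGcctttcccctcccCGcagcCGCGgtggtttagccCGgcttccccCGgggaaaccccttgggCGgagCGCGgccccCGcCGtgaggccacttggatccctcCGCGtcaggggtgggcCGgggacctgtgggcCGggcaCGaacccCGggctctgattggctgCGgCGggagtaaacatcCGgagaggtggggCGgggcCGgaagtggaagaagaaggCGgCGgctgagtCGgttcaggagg
Setd5, plus strand, internal start, chr6:113104685-113104984, under no peak: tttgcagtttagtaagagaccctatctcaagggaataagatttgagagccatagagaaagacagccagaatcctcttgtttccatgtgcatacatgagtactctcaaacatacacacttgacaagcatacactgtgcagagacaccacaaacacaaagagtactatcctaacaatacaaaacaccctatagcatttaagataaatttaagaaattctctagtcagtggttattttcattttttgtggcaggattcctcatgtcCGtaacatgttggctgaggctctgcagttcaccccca
Lhfpl4, minus strand, chr6:113195335-113195634, under no peak: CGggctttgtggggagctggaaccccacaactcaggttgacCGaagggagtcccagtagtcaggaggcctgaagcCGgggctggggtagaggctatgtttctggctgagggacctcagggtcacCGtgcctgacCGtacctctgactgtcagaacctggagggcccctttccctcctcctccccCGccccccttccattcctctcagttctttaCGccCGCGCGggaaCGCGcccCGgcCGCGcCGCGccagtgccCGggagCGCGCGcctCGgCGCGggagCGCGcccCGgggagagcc

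The Thumpd3 window held 26 CG dinucleotides in 300 bases, the Mtmr14 window 27, the Lhfpl4 window 27 and the internal Setd5 window 1. Of 32851 RefSeq promoter windows, 16.9% held at least 26, 15.5% at least 27 and 94.6% at least 1. The median was 25 in the 5474 windows under a DMSO peak and 5 in the 27377 others. The internal Setd5 start was thus poor in CG, while Lhfpl4 was as rich as Mtmr14 and had no peak. The motif GGGCGG, read on both strands, occurred 2 times at Mtmr14, 1 time at Lhfpl4 and 0 times at Thumpd3 and the internal Setd5 start, against 35.7% of all windows with at least 1. CCAAT, on both strands, occurred 2 times at Mtmr14 and 0 times in the other 3 sequences, against 37.4% of all windows with at least 1. TATAAA occurred in none of the 4, against 13.6% of all windows. Where ATTGG, which is CCAAT on the other strand, runs into GGGCGG, each motif was counted, but none of the 4 sequences holds such a case.

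The DMSO peak of the locus spanned 113074301 to 113079450 (5150 bp) and covered the facing ends of both genes. Its summit, at 113077218, lay 26 bp inside the upper end of Gt(ROSA)26Sor and 44 bp from the lower end of Setd5. The authors' fold enrichment at the summit, the pull-down coverage over the background expected from the input, was 33.8, with a −log10 p of 142 and a −log10 q of 135. Of 6444 DMSO peaks it had the highest fold, ahead of the peak at the histone gene H2ac19 (32.8). By −log10 p and by −log10 q it was second, behind a peak near Zc3h7a on chromosome 16 with a −log10 p of 170, a fold of 23.6 and a higher background term. In width it ranked 372, within the widest 5.77% of the list.

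The treated peak lay inside the DMSO peak, at 113075544 to 113077455 (1912 bp). Its summit, at 113077022, was 222 bp inside Gt(ROSA)26Sor and 240 bp from Setd5. Its fold was 7.05, with a −log10 p of 14.2 and a −log10 q of 8.51. By fold it ranked 32 of 491, level with 3 other peaks that included H2ac19, and by −log10 p it ranked 51. It was the treated peak of sixth greatest width.

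**Figure D1:**
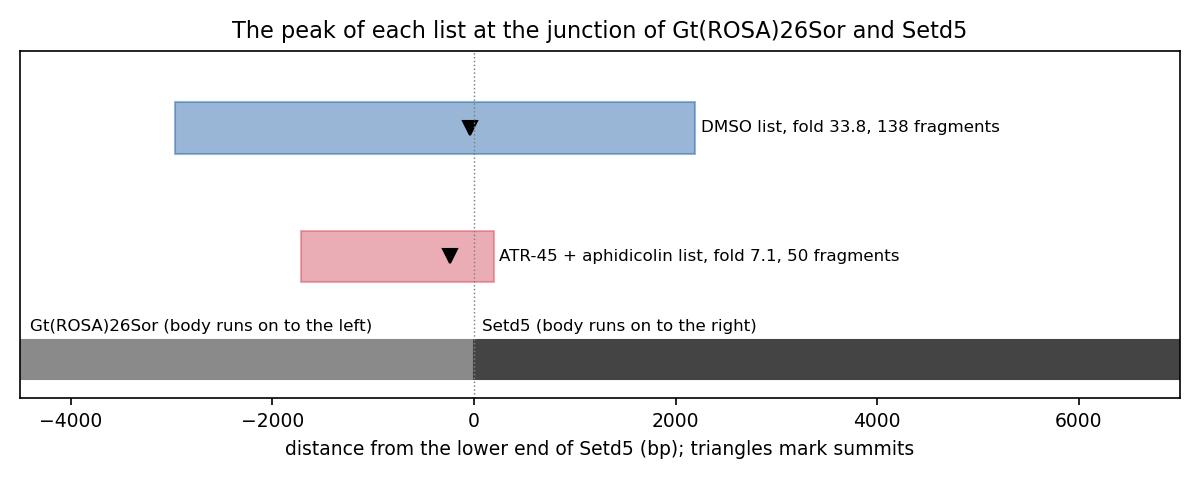
Spans (bars) and summits (triangles) of the peak of each list at the junction of Gt(ROSA)26Sor and Setd5; the horizontal axis gives the distance from the lower end of Setd5 in bp. The treated peak of 1912 bp lies within the DMSO peak of 5150 bp, and both summits lie on the Gt(ROSA)26Sor side.

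The fragments behind these peaks were recovered from the caller's fold and p. At the DMSO summit 138 pull-down fragments overlapped, with an exact Poisson interval at 95% of 116 to 163. At the treated summit there were 50, with an interval of 37.1 to 65.9. These intervals cover counting error only, and PCR copies are not independent molecules. The genome background of the pull-down was 2.88 fragments for DMSO and 5.14 for the treated condition. The DMSO summit thus stood at 48.0 times its own background (interval 40.3 to 56.7) and the treated summit at 9.73 times (interval 7.22 to 12.8). The values are set side by side and not tested, since each condition is 1 pooled list. The input term equalled the genome background in both lists (2.32 and 2.26 fragments), below which the caller does not let it fall, so no gain of input was recorded at the locus in either condition.

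More fragments than at the locus were found at 47 DMSO peaks. All 47 had an input term above the genome background, with a median of 23.1 fragments, and 31 of them lay in the dense region of chromosome 15 that holds Myc and Pvt1. In the treated list 128 peaks had more fragments than the locus, 112 of them with an input term above the background and 16 at it. By fragments alone the locus therefore ranked 48 among DMSO peaks and 129 among treated peaks.

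**Figure D2:**
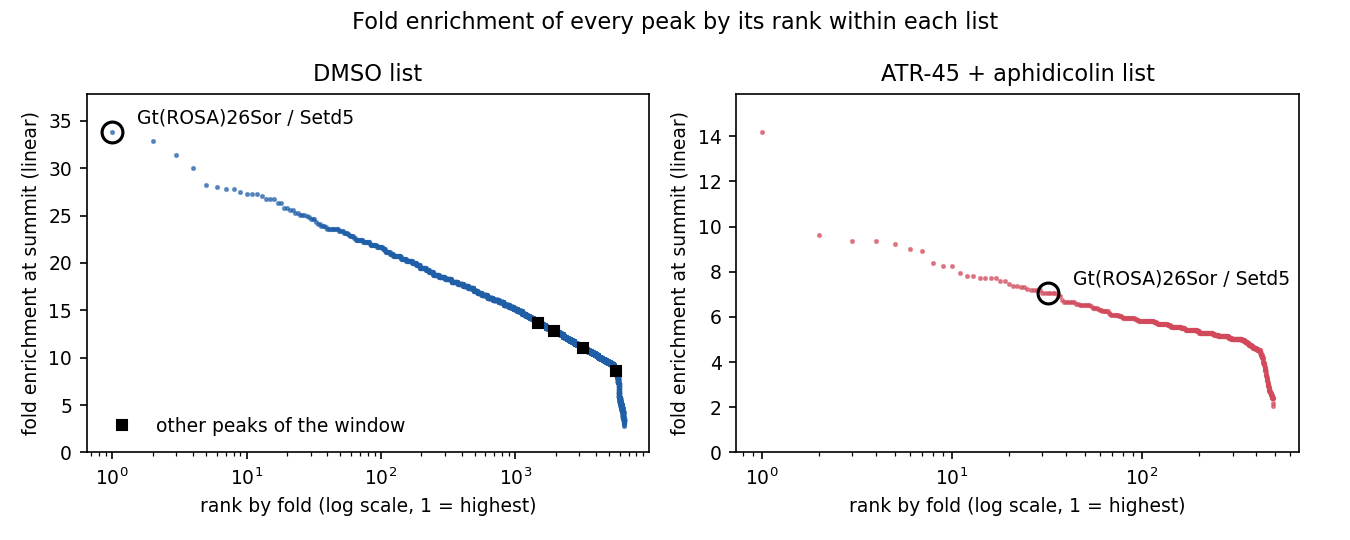
Fold enrichment at the summit (linear axis) against rank by fold (log axis) for every peak of the DMSO list (left) and the treated list (right). The circle marks the peak at Gt(ROSA)26Sor and Setd5, which had a fold of 33.8 at rank 1 and of 7.05 at rank 32, and the squares mark the 4 other DMSO peaks of the window.

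The peaks were shared unequally between the genes. The DMSO peak had 57.2% of its length in Gt(ROSA)26Sor (2944 bp) and 42.5% in Setd5 (2189 bp). The treated peak had 89.0% in Gt(ROSA)26Sor (1701 bp) and 10.1% in Setd5 (194 bp). The DMSO peak covered 29.99% of the Gt(ROSA)26Sor body and 2.87% of the Setd5 body, and the treated peak 17.3% and 0.255%. The DMSO summit lay 56.7% of the way along its peak, counted from the Gt(ROSA)26Sor side, and the treated summit 77.3%. The treated peak was thus shorter than the DMSO peak on both sides, and most of its length lay in Gt(ROSA)26Sor. A single pooled peak gives no error for these edges.

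Gt(ROSA)26Sor held 1 DMSO summit and 1 treated summit in its body. Of 12727 lncRNA genes, 5.13% held a DMSO summit and 0.361% a treated summit. The body of Setd5 held 0 summits of either list, although both peaks reached into it. Of 21887 protein-coding genes, 13.2% held a DMSO summit in the body and 0.758% a treated summit. Setd5 had a summit of each list within 1 kb of its lower end, as did 19.5% of protein-coding genes for the DMSO list at either end, 0.685% for the treated list and 0.608% for both lists. These shares describe the lists, and nothing is read from them, since the genes were chosen with the peaks known.

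The summit of the DMSO peak lay closer to a gene end than most. In the DMSO list 4055 summits (62.9%) lay within 1 kb of an end of any RefSeq gene, with a median distance of 254 bp, and 6.24% of these were at 26 bp or nearer. In the treated list 152 summits (31.0%) lay within 1 kb, with a median of 225 bp, and 49.3% of these were at 222 bp or nearer. The treated summit was thus at a middling distance for its list. Ends of 2 genes or more lay within 1 kb of 1315 DMSO summits (20.4%) and 56 treated summits (11.4%), and the locus was among both.

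The window held 4 other DMSO peaks, all weaker. Their folds ran from 8.56 to 13.7, so the peak at the junction was 2.48 times the next one, and their fragments ran from 43 to 55. They were 2090 to 2890 bp wide and ranked between 1485 and 5612 by fold. At the divergent starts of Thumpd3 and the lncRNA gene Gm43868, a DMSO peak spanned 113044954 to 113047843, with a summit 345 bp from Thumpd3, a fold of 12.9 and 55 fragments (exact Poisson interval 41.4 to 71.6). At the start of Mtmr14 a DMSO peak spanned 113236545 to 113239366, with a summit 539 bp inside the gene, a fold of 13.7 and 55 fragments. It was the summit nearest the edge of the window, 84.7 kb beyond Setd5, and the next one outside lay at 153 kb.

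The remaining pair of DMSO peaks lay away from starts. A peak at 113165655 to 113168314 had its summit 1306 bp beyond the downstream end of Lhfpl4 and 13.3 kb past Setd5, with a fold of 10.99 and 44 fragments. A peak at 113024195 to 113026284 lay 21.1 kb from Thumpd3, the nearest coding gene, with a fold of 8.56 and 43 fragments. Its input term was 1.37 times the genome background, against 1.09 times at Thumpd3 and the background itself at the other 3 DMSO peaks. Neighbouring summits of the 5 were 20.8, 31.3, 89.6 and 71.4 kb apart.

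**Figure D3:**
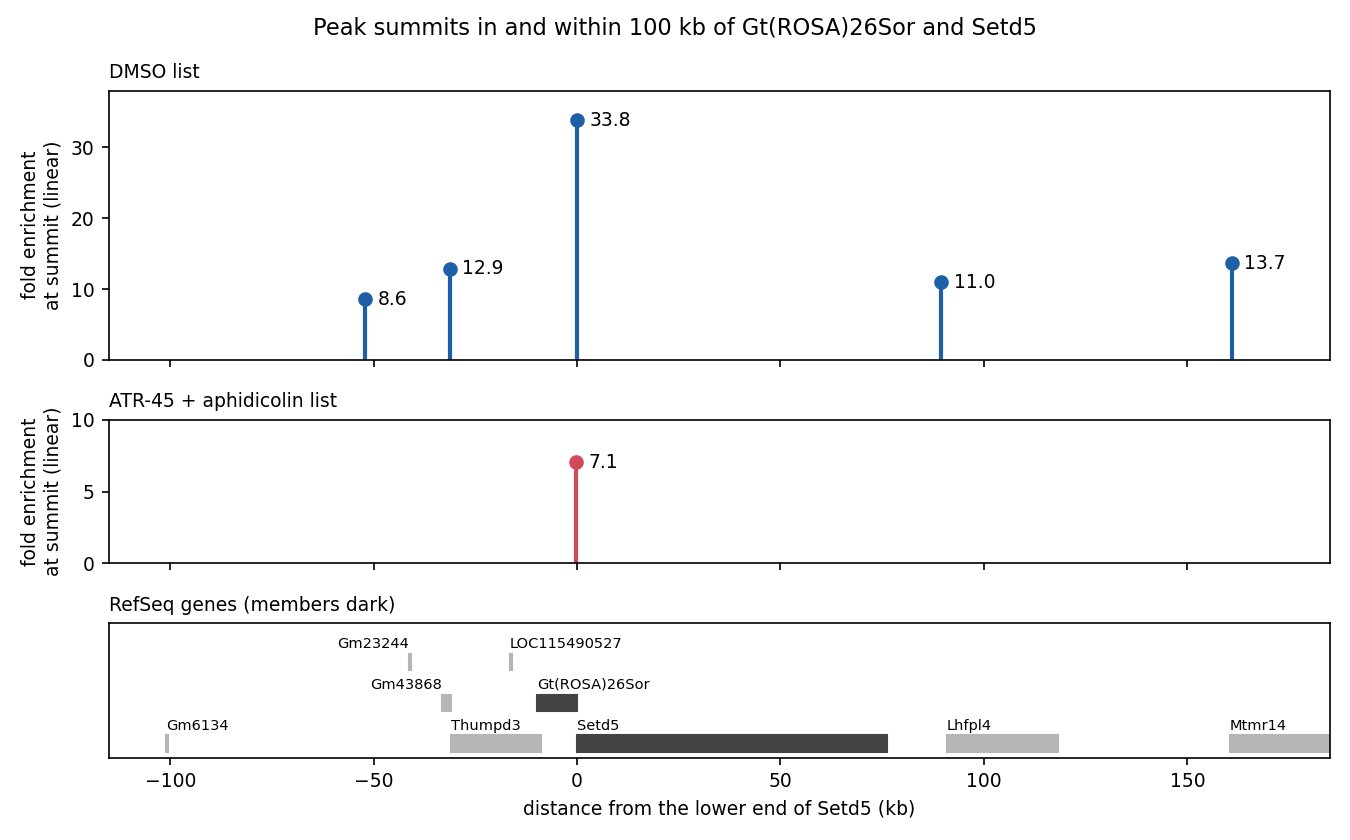
Fold enrichment (linear axes) at each DMSO summit (top) and treated summit (middle) of the window, against the distance from the lower end of Setd5 in kb, with the RefSeq genes below and the members dark. The DMSO list had 5 summits with folds of 8.56 to 33.8, and the treated list had 1, with a fold of 7.05.

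None of these 4 peaks overlapped a treated peak. In the whole list of 6444 DMSO peaks, 187 overlapped one, so most had none. These 4 peaks stood at 14.96 to 19.1 times the pull-down background of the DMSO list. The lowest peak of the treated list stood at 6.81 times its own background. That of the DMSO list stood at 12.2 times, and each had 35 fragments. The lowest −log10 p was 8.12 in the treated list and 21.3 in the DMSO list. The lists thus ended at different strengths, with the treated list reaching lower by both measures. Only if these multiples held over the treated background would the 4 peaks have 76.8 to 98.3 fragments. Shared peaks did not generally keep theirs. The locus stood at 48.0 times background with DMSO and 9.73 times after treatment. Ezh2 had 28.9 and 7.20, and Clcn4, a weaker DMSO peak, 13.6 and 9.15. A pair near Myc on chromosome 15 was level, at 34.1 and 34.1. Whether these 4 peaks would have reached the floor of the treated list was thus not tested. Coverage at these 4 positions in treated cells was not analysed here. Within its own 100 kb, Setd5 had 5 DMSO summits and 1 treated summit, and Gt(ROSA)26Sor had 4 and 1. Of protein-coding genes, 8.12% had at least 5 DMSO summits in the body or within 100 kb, and 7.13% had at least 1 treated summit.

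Peak names carry a number that rises along the genome, and it was read as counting all calls before the deposited ones were kept. The DMSO peaks of the window spanned 12 such numbers, of which 5 were in the list. Both ends of this span are listed peaks by construction, so its share is not like that of the whole list. In the whole DMSO list 6444 of 64322 numbers (10.0%) were kept. In the treated list 3 numbers fell between the junction and the next listed peak below it, and 4 before the next above it.

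On the Gt(ROSA)26Sor side, beyond the window's outermost DMSO peak, lay a long stretch without listed peaks. No listed DMSO summit lay between 108828220 and 113025190, a gap of 4.20 Mb, which was the fourth longest of 380 on chromosome 6 and number 95 of 6423 in the genome. The median gap between DMSO summits on the chromosome was 89.1 kb. The peak names skip 16 numbers across the stretch, so by the reading above 16 calls there were not kept in the list. The stretch held 8 protein-coding genes, among them Grm7, a glutamate receptor gene of 922 kb, Oxtr, the oxytocin receptor gene, Cav3, a caveolin gene of muscle, and Rad18, which encodes a ubiquitin ligase of damage tolerance at forks. Within 1 Mb of the members lay 2 DMSO summits on this side and 8 on the Setd5 side, and coding genes numbered 7 and 27. The treated list had 0 and 2 summits on the respective sides. In the treated list the gap below the locus was 4.42 Mb, number 10 of 42 on the chromosome, and ended at a peak at Bhlhe40, a circadian transcription factor gene. On chromosome 6 the junction had the highest fold of 381 DMSO peaks and the fifth highest of 43 treated peaks.

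Beyond the window on the Setd5 side, the next DMSO summit lay 412 bp from Brpf1, a scaffold gene of histone acetyltransferases, with a fold of 24.6 and 100 fragments. The next treated summit lay 228 bp inside Ogg1, which encodes the glycosylase that removes oxidised guanine, with a fold of 5.58 and 44 fragments. It was 174 kb beyond Setd5.

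**Figure D4:**
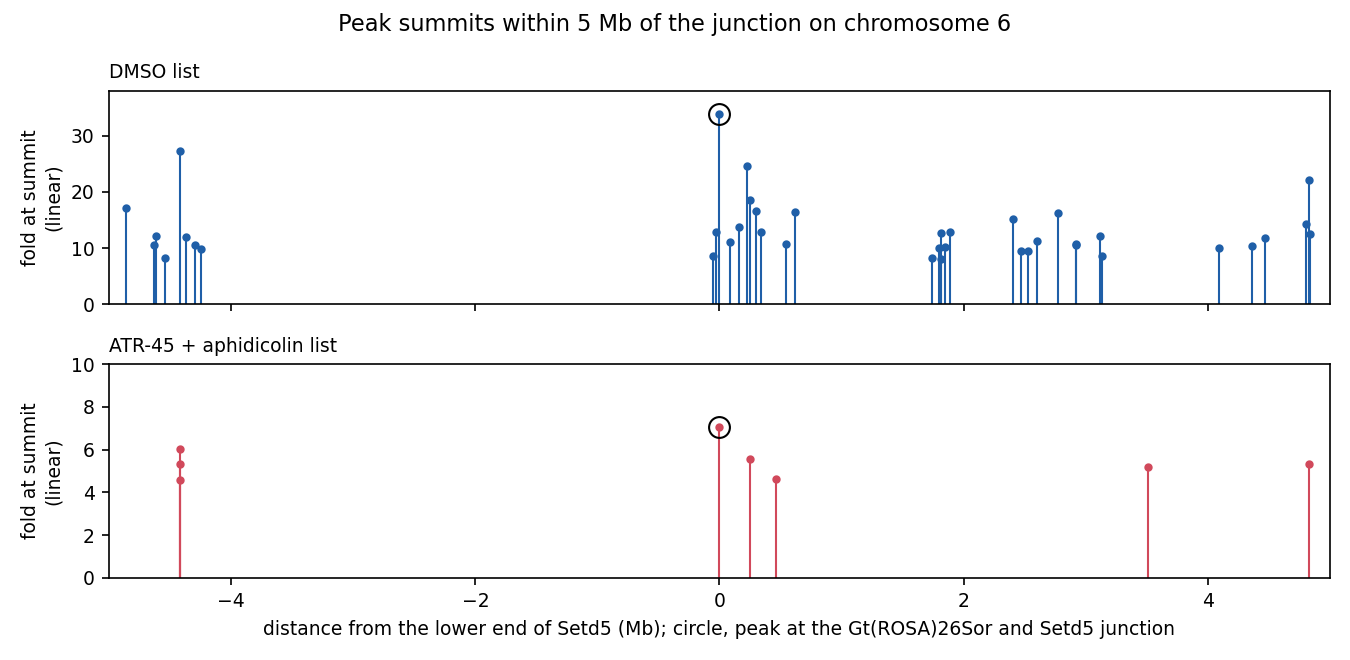
Fold enrichment (linear axes) at every DMSO summit (top) and treated summit (bottom) within 5 Mb of the lower end of Setd5, with the distance in Mb; circles mark the junction of the members. The DMSO list has no summit for 4.20 Mb on the Gt(ROSA)26Sor side, beyond the window, and the junction is the highest peak of both panels.

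The locus was set beside the other positions where the lists met. There were 201 overlapping pairs of a DMSO and a treated peak, at least 1 bp shared, and in 97.5% of them the treated peak lay wholly inside the DMSO peak, as at the locus. Paired summits lay a median of 180 bp apart, and those of the locus 196 bp. The treated peak of the locus covered 37.1% of its DMSO peak, against a median of 13.3%, and was 1912 bp wide against 483 bp. Among the treated peaks of these pairs only 1 had a higher fold than the locus. In the whole treated list 31 peaks did, and 30 of them overlapped no DMSO peak. Of the 5 treated peaks wider than the locus, 4 overlapped a DMSO peak. For comparison, 200 of all 491 treated peaks overlapped a DMSO peak.

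Pairs were ordered by the worse of their 2 rank shares (rank by fold over list length), and the locus came second, at 6.52%. This order uses the same values that chose the genes. First came the pair near Camta1, whose nearest gene was 9230110K08Rik, with folds of 27.7 (DMSO) and 7.07 (treated). Level with the locus was H2ac19, at 32.8 and 7.05. The rest of the 10 pairs lay near H2az1, a variant histone gene (21.9 and 6.65), Zfp91 (24.1 and 6.51), Tomm40, which encodes the mitochondrial import pore (22.4 and 6.51), Kmt2e, a close relative of Setd5 (19.98 and 6.24), the phosphatase gene Ppm1b (25.8 and 6.18), the co-chaperone gene Stip1 (18.6 and 6.13) and Bhlhe40 (27.3 and 6.04). The H2ac19 peaks were far narrower than those of the locus, at 187 bp (DMSO) and 120 bp (treated). Its summits coincided, while those of the locus lay 196 bp apart.

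**Figure D5:**
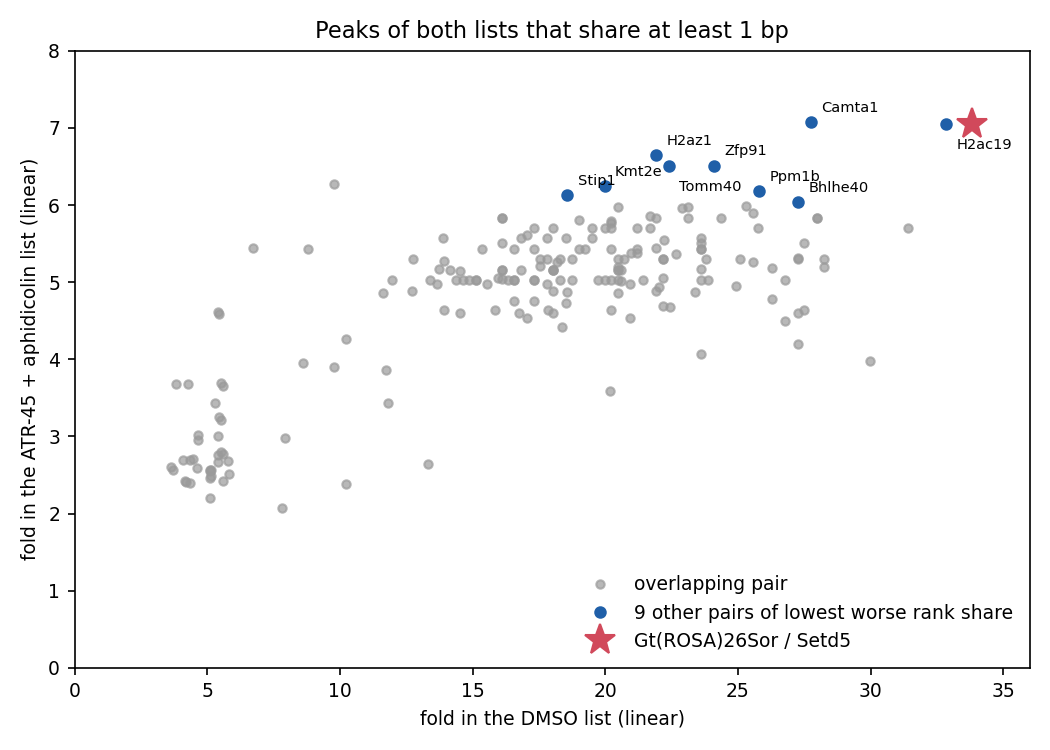
Fold in the treated list against fold in the DMSO list (linear axes) for the 201 overlapping pairs of peaks. The star marks Gt(ROSA)26Sor and Setd5, at 33.8 and 7.05, and the coloured points mark the 9 other pairs of lowest worse rank share, named by their nearest coding gene.

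The 3 gene lists that bear on the members were counted. Of 36 genes for SET domain proteins, Setd5 included, 20 had a DMSO summit within 1 kb of an end and 4 a treated summit, against 19.5% and 0.685% of protein-coding genes. Besides Setd5, the leading DMSO fold was 20.5 for Ezh2, the catalytic subunit of the complex that methylates histone H3 in silenced genes. Then came 19.98 for Kmt2e, 18.8 for Kmt5a, a methyltransferase of histone H4, and 18.03 for Setd3, an actin methyltransferase gene. Kmt2c, a methyltransferase gene of enhancers, had 17.3. The 4 with a treated summit were Setd5 (7.05), Kmt2e (6.24), Ezh2 (5.30) and Kmt2c (5.03). Each of these also had a DMSO summit at an end. Of 12 genes for the HDAC3-NCoR and PAF1 complexes, to which SETD5 binds, 3 had a DMSO summit at an end. Among them were Tbl1xr1 of the corepressor (14.9) and Rtf1 of the PAF1 complex (13.2). A treated summit at an end was found for 0 of the 12. Of 8 names of other loci used for transgenes in mouse, a list that leaves out Gt(ROSA)26Sor itself, 7 were found. Of these Actb, which encodes cytoplasmic actin, held a DMSO summit (24.9, rank 28) and a treated summit (4.95) in its body, which made 1 of the 7 for each list, against 13.2% and 0.758% of protein-coding genes. Of these 7, 0 had a summit of either list within 1 kb of an end. The lists were written with earlier results of these data known, and nothing particular is read from their counts.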

How the data were processed

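Per the labels, DNA ends were measured in 6 samples, and the deposited data used here are 2 pooled peak lists, 1 per condition. Per the peak names, all pull-downs of run set 1 (DMSO) or run set 2 (treated) were compared with all inputs. The names do not say whether these were the inputs of that condition only. The submitters' processing notes name MACS2 2.1.0, Picard 1.141, SAMtools 0.1.19, STAR 2.5.2a, bcl2fastq 2.17.1.14 and the build mm10, with no roles. Each peak carries the authors' fold enrichment (a ratio), −log10 p and −log10 q, and a deposited score that equals the whole part of 10 times −log10 p in every row. Both lists are ordered by −log10 p, and no source used here gives the rule that ended them.

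Summits were placed on RefSeq genes of GRCm38.p6. Fold (coverage plus 1 over background plus 1) and Poisson p were solved together for coverage, which was accepted within 0.02 of a whole fragment (100% of peaks). The solution was tested on data simulated with the same formulas, so whether the caller used them was not tested. Simulated input terms were the background or small whole numbers only. Fragments at all peaks ran from 35 to 204. The files hold no read totals. No test between conditions was made, since each is 1 pooled list. Members, gene lists and rules were chosen with earlier results of these data known. Genes named are the members, those nearest each summit of the window and beside it, the 10 overlapping pairs of lowest worse rank share, and up to 6 list genes per list by fold. The value of 1 list gene is not reported here. Python 3.11.15, NumPy 2.4.6, SciPy 1.17.1, pandas 2.3.3 and matplotlib 3.10.9 were used.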

Additional observations from a re-analysis of the deposited data

How the results depend on the processing

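Of 28 alternative settings over 6 results, 17 left the value the same or within 1.5 times. No paired analysis was possible because each condition is 1 pooled list, and for the same reason no replicate could be left out. The DMSO rank of the locus was 1 by fold, 2 by −log10 q and by −log10 p, and 48 by recovered coverage, which takes no account of input. The treated rank was 32 by fold, 51 by −log10 q and by −log10 p, 129 by recovered coverage, and 2 among the 132 treated peaks at an end of a protein-coding gene. Leaving out the dense region of chromosome 15 changed neither rank. With 200 kb on each side the treated count was 2. The window held 3 DMSO summits when peaks below the median fold were left out. The 1 treated peak of the window overlapped a DMSO peak under every overlap rule tried. Protein-coding genes with a DMSO summit numbered 2890, 6538 with 10 kb on each side and 1677 when weaker peaks, below the median fold, were left out. The 50 treated fragments at the locus lay over the higher pull-down background of the treated list (5.14 fragments against 2.88). Coverage outside listed peaks was not analysed here.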

Other observations

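Letters of the RefSeq promoter windows under peaks were counted in both lists. CCAAT, read on both strands, was present in 67.7% of the 133 windows under a treated peak and in 43.0% of the 5474 under a DMSO peak, against 37.4% of all 32851. Without histone genes the shares were 67.4% of 132 and 42.6% of 5425. The other measures lay closer together. Under treated and DMSO peaks, the median number of CG dinucleotides was 25 in both, median GC content was 64.7% and 64.3%, GGGCGG was present in 78.9% and 73.8%, and TATAAA in 4.51% and 5.15%. The groups differ in more than treatment. Median peak width was 454 bp in the treated list and 2855 bp in the DMSO list. DMSO peaks of the overlapping pairs had a median fold of 18.0, against 10.99 in the whole DMSO list. Windows of divergent genes overlap, so they are not independent, and no test was made.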
